A study of Homo sapiens with 17 samples.

Results

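Clones c6 and c8 of the neuroblastoma line IMR32 were compared at times 0, 4 and 8 of a doxycycline time course, to find the transcript levels that set them apart before most genes respond. The comparison holds 6 of the 17 arrays of the series, 3 per clone, chosen by the clone and time in their labels. IMR32 is a human line with amplified MYCN, and both clones carry a doxycycline-inducible construct for NOTCH3IC, the intracellular part of the receptor NOTCH3. Each group therefore stands for 1 clone, c6 or c8, without doxycycline at the start and after its addition at times 4 and 8. The times are printed as labelled, since the labels give no unit. The parental line, other clones and cultures kept without doxycycline were not analysed here, and the sources used here do not give the site of the construct in either clone. A single array was made per clone and time. Arrays of neighbouring times therefore stand in as replicates. With time as a block, the p-values speak for the spread of the clone difference over times 0, 4 and 8. Much of that estimate is borrowed from other genes: the degrees of freedom were 2 before borrowing and 14.1 after it.

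A clone is grown from a single cell and keeps that cell's own genome and its state of expression, so clones of one tumour line can differ before any treatment. In the Notch pathway a ligand on a neighbouring cell leads to cleavage of the receptor by gamma-secretase. The freed intracellular domain joins the DNA-binding protein RBPJ in the nucleus and switches on repressor genes of the HES and HEY families. NOTCH3IC enters this pathway below the ligand, so its targets can be read as soon as the construct is on.

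The promoters of 4 of the largest differences are shown, 2 of genes higher in clone c8 (PAGE1, SYNPO2) and 2 of genes lower in it (RAB31, LRRN3). Each run is the 250 bases before the gene's start, 5′ to 3′ on the gene's own strand, from RefSeq on GRCh38.p14, with CG dinucleotides in capitals. PAGE1 lies on the minus strand (chrX:49695985-49696234), and SYNPO2 (chr4:118850431-118850680), RAB31 (chr18:9708051-9708300) and LRRN3 (chr7:111090877-111091126) lie on the plus strand.
PAGE1: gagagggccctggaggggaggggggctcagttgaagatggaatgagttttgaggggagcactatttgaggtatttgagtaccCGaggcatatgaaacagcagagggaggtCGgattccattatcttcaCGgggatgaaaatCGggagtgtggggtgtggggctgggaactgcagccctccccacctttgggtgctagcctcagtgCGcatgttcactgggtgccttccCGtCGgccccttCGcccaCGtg
SYNPO2: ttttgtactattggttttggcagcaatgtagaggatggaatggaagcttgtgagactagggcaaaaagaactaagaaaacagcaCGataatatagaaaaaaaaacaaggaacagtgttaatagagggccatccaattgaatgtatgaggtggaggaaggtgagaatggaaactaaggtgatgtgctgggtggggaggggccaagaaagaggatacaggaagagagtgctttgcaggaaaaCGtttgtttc
RAB31: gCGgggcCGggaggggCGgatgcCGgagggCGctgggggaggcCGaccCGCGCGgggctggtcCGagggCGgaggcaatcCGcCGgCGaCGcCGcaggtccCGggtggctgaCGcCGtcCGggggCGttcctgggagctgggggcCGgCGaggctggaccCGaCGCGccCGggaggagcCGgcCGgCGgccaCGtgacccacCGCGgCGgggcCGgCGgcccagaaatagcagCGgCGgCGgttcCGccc
LRRN3: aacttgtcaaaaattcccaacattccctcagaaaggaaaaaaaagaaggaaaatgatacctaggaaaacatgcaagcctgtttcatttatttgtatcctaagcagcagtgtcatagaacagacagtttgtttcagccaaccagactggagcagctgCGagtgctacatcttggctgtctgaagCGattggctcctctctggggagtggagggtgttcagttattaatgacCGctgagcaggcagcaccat
The RAB31 promoter holds 40 CG dinucleotides, against 9 in PAGE1, 3 in LRRN3 and 2 in SYNPO2, and the median over all 27305 promoters of the table is 11. The RBPJ-type motif GTGGGAA, searched on both strands, is in none of the 4, and 5.46% of all promoters hold it. It is in 5.16% of the promoters of tested genes, in 4.51% of those of genes higher in clone c8 and in 5.96% of those of genes lower. The letters are a description of these windows, and methylation or binding of a factor was not measured. Of the 24 genes with the largest differences, 14 had a promoter in the table.

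The arrays were alike in brightness. Deposited signals, which are scaled intensities without a unit, had a median of 14.6 to 17.8 in clone c6 and of 15.4 to 16.7 in clone c8 at the first 3 times. Of the sympathetic neuroblast markers, MYCN, GATA3 and PHOX2A were bright in both clones (PHOX2A, the dimmest of the 3, between 1259 and 1598), and TH, the first enzyme of noradrenaline synthesis, was at 1.4 or below on all 6 arrays. STMN2 was at 5.5 or below, CHGB between 58.2 and 77.6 and HAND2 between 80.9 and 126. The summed signal of the 12 neuroblast markers was 14299 to 16267 in clone c6 and 15061 to 16061 in clone c8. MYCN, GATA3 and TUBB3 made up most of this sum. In the test below, CHGA and ELAVL4 were higher in clone c8 and TUBB3 lower. Markers of endothelial cells, leukocytes, epithelium and Schwann cells summed to at most 67.4 on any of the arrays. The 6 fibroblast markers summed to 1074 to 1338 in clone c6 and 771 to 980 in clone c8, nearly all of it from COL1A1 and PDGFRA, while LUM and DCN were at 21.6 or below. The array's ACTB control for RNA integrity differed between the clones. The ratio of its 3′ to its 5′ probe set was 1.22 to 1.34 in clone c6 and 1.62 to 1.70 in clone c8. That of GAPDH was 1.01 to 1.12 and 0.99 to 1.02, not higher in clone c8. RNA integrity itself was not measured here. The part of the ACTB ratio in the differences below was not tested.

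Of 13675 genes tested, 1853 (13.6%) differed between the clones at a limma adjusted p under 0.05, 911 (6.66%) higher in clone c8 and 942 (6.89%) lower. Differences are log2(signal + 16) of clone c8 minus clone c6, with the standard error from limma after ±, and folds are on that scale, which understates those of dim genes. Most were small: 59 of the higher genes (0.431%) and 48 of the lower (0.351%) differed 2-fold or more. In 3281 genes (24.0%) the 3 arrays of one clone did not overlap the 3 of the other, and 1513 of these passed the test (11.1%). At the threshold, NETO2 (-0.25) and RAD17 (0.33) were the last inside, and PHKG2 (-0.53) and HMBOX1 (0.31) the first outside. In RNA from a whole culture, fewer cells that express a gene and less RNA per cell cannot be told apart. The count fell to 524 when time was left out of the model and to 240 without the intensity trend of the test. It was 1205 without time 4 and 1069 without time 8 of both clones.

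**Figure D1:**
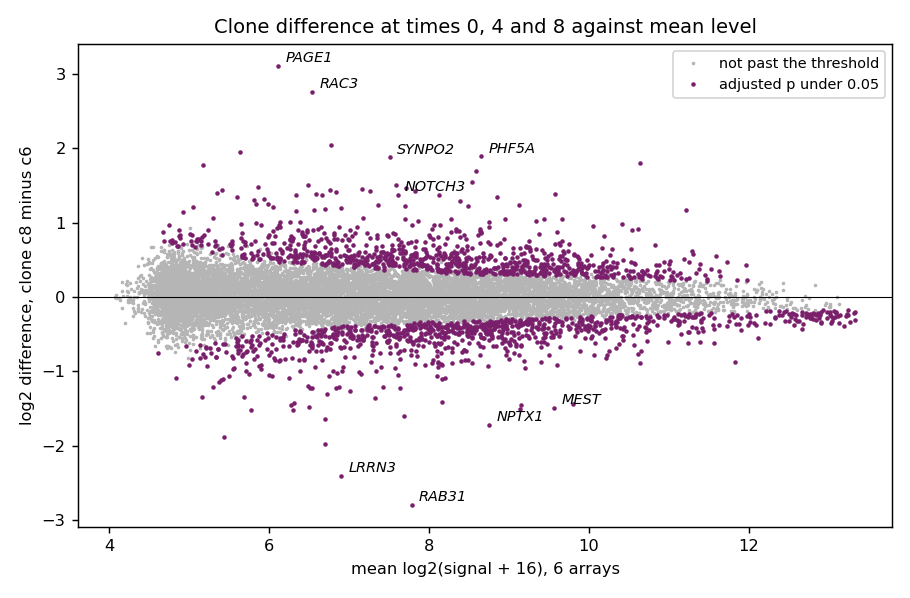
Each point is a gene, with its mean log2(signal + 16) over the 6 arrays on the x axis and its log2 difference, clone c8 minus clone c6, on the y axis, purple where the limma adjusted p was under 0.05. PAGE1 at 3.11 and RAB31 at -2.80 are the extremes, and at a mean of 12 or more 80 of 150 genes were called lower and 0 higher.

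On this scale the largest difference was in PAGE1, a cancer-testis gene of the X chromosome normally restricted to the germ line. Its signal was 1.8, 12.4 and 9.9 in clone c6 at times 0, 4 and 8 against 201, 165 and 198 in clone c8. The signals of clone c6 lay below the median of their arrays, so the difference of 3.11 ± 0.18 (adjusted p = 2.4e-07) is set in part by the pseudocount. It was 1.81 with a pseudocount of 64, where RAB31 at -2.26 was the larger, and 4.67 with a pseudocount of 1. PAGE1 was the one member of 6 tested cancer-testis genes to pass (16.7% called beside 13.6% of all genes). PHF5A, a subunit of the SF3b splicing complex, read 202, 242 and 146 against 789, 732 and 764 (1.90 ± 0.12).

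SYNPO2, which encodes an actin-binding protein of muscle, read 115, 70.6 and 60 in clone c6 against 310.5, 356 and 337 in clone c8 (1.88 ± 0.15). Its 6 other probe sets were dimmer and all higher in clone c8, by 0.36 to 1.19. RAD23B, a partner of XPC in nucleotide excision repair, read 853, 1095 and 627 against 2407, 3222 and 3366 (1.81 ± 0.13). Its probe sets disagreed: the others gave 0.56, 0.29 and -0.02. Those of TAF15, an RNA-binding protein of the FET family, disagreed as well, with 2.05 ± 0.14 on the brightest and 0.10 to 0.21 on the 3 others. SCUBE1 (1.95), the collagen chaperone FKBP10 (1.77), ZC2HC1A (1.55), TMEM178B (1.51), the histone chaperone NPM3 and galectin-1, LGALS1 (1.49), were also among the 12 largest. SCUBE1, FKBP10 and LGALS1 were below a signal of 31 on each array of clone c6, so the pseudocount sets part of their differences as it does for PAGE1.

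Among genes lower in clone c8, RAB31, a small GTPase of vesicle transport, had the smallest p of all. It read 537.5, 544 and 613 in clone c6 against 67.2, 59.1 and 76.9 in clone c8 (-2.80 ± 0.11, adjusted p = 4.1e-09), or 6.95-fold lower. Its other 2 probe sets differed more, by -3.40 and -3.57. LRRN3, a leucine-rich repeat protein of neurons, read 389, 221 and 200.4 against 50.5, 31.4 and 28.2 (-2.41 ± 0.13), and its second probe set gave -2.67. LRRN3 declined over the 3 times in both clones, and the gap stayed between -2.61 and -2.29 on the log2 scale. FAM43A read 306, 145 and 153 against 52.5, 35.1 and 24.8 (-1.98 ± 0.14).

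The other 9 of the 12 largest lower genes differed by -1.88 to -1.48. NPTX1, a secreted pentraxin of synapses, read 575, 895 and 876.5 in clone c6 against 194, 274 and 204 in clone c8 (-1.72 ± 0.11). SLITRK6, which controls neurite growth, differed by -1.88 ± 0.20, and the synaptic cadherin-like protein CLSTN2 by -1.65 ± 0.14. SLITRK6 read 8.1, 2.2 and 9.9 in clone c8, below the median of each array. The pseudocount therefore sets part of its difference, which ran from -3.31 to -0.90 under the alternatives. GPM6B, a neural membrane glycoprotein of the proteolipid family, was lower on all 4 of its probe sets, by -1.15 to -1.66. Lower transcription factors were GLI3, the Hedgehog effector (375, 365 and 298 against 119.5, 99.1 and 90.1, -1.61 ± 0.11), and the homeobox gene LHX9 (-1.48 ± 0.16). MT2A, a metal-binding metallothionein (-1.52), and ADAMTS5, a matrix protease (-1.52), were also among them. MEST, a gene expressed from the paternal copy, read 1052, 1259 and 1488 against 417, 459 and 433 (-1.49 ± 0.10).

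**Figure D2:**
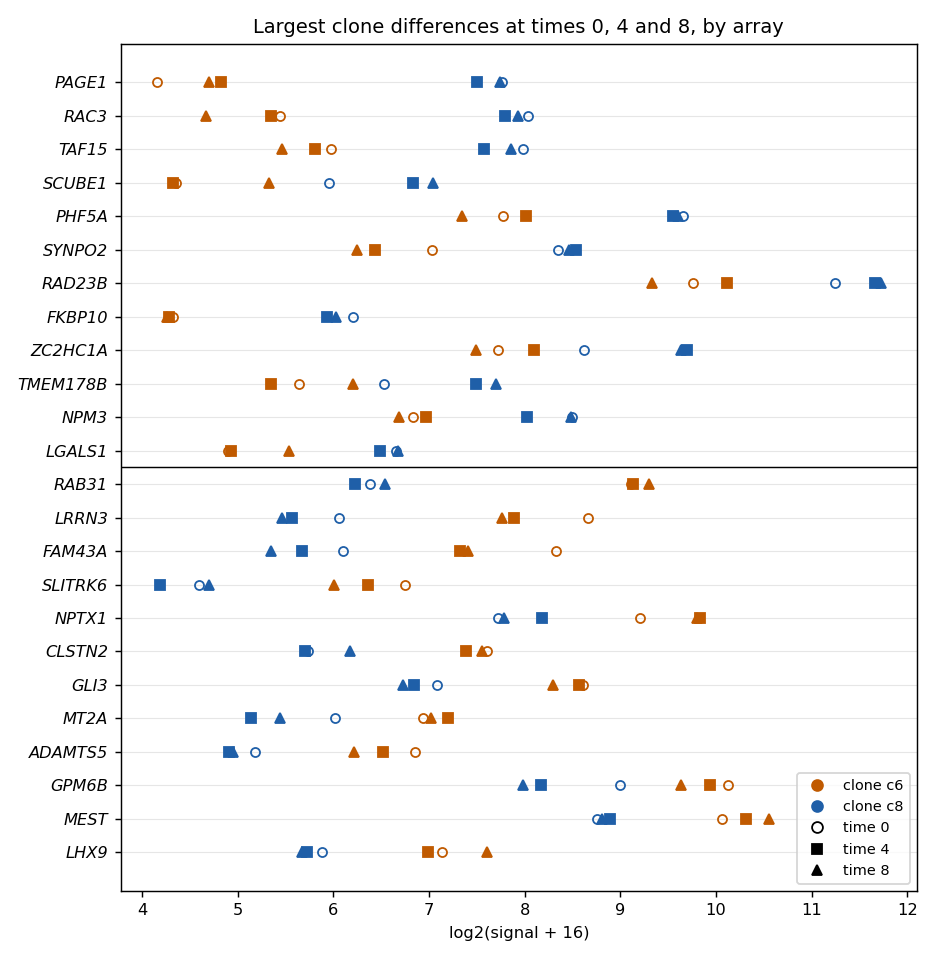
Each row is one of the 24 genes with the largest differences past the test and without overlap between clones, and each point an array, with log2(signal + 16) on the x axis, clone c6 in orange and clone c8 in blue. The choice of genes fixes that the clones do not overlap in a row. The width of the gap varies: at time 0 clone c6 reads 537.5 and clone c8 67.2 in RAB31, but 194 and 377 in ZC2HC1A.

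The differences were not spread evenly over the genome. Chromosome 2 had 211 of 919 tested genes lower in clone c8 and 26 higher, and chromosome 12 had 137 of 731 lower (18.7%) and 15 higher, where 6.89% of all genes were lower. Chromosomes 13 (51 of 245, 20.8%), 8 (82 of 505, 16.2%) and 15 (53 of 453, 11.7%) held more higher genes than the 6.66% of all genes. Chromosomes 2 and 12 hold 12.1% of the placed genes and 37.1% of the lower calls, and chromosomes 8, 13 and 15 hold 8.82% of the genes and 20.5% of the higher calls. The median difference was -0.13 on chromosomes 2 and 12, 0.19 on chromosome 13, 0.13 on chromosome 8 and 0.11 on chromosome 15. On the other chromosomes it lay between -0.01 and 0.06. The signs of chromosomes 2, 8, 12, 13 and 15 held under every pseudocount, scaling, filter and probe set rule tried. Those of chromosomes 9, 17, 18 and 19 turned under 1 setting each. Without these 5 chromosomes, 1238 of 10779 genes were called.

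On chromosome 2 the shift was larger along the second part of the gene order, which holds 469 of the 919 tested genes. Its boundary was placed here after the values were seen. Along blocks of 25 neighbouring tested genes, the 19 blocks from SLC67A2 to the end of the long arm all had a median below 0, from -0.60 to -0.01. In that stretch 170 of 469 genes were lower (36.2%), 6 were higher and the median difference was -0.27, with -0.32 at time 0, -0.27 at time 4 and -0.30 at time 8. Before it, 41 of 450 genes were lower, 20 were higher and the median was -0.05. Of the 18 blocks there 14 were also below 0, down to -0.15, and 1 block inside the stretch, from MERTK to C2orf76, was at only -0.011. The lowest 3 windows of 25 neighbours in the genome all lay in the stretch. They ran from ILKAP to THAP4 (median -0.62, 14 genes lower and 0 higher), from NBEAL1 to RPE (-0.48, 13 lower) and from ITM2C to AGAP1 (-0.46, 15 lower). Over all 13080 windows, the 5th and 95th percentiles were -0.17 and 0.17.

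Named here are the called genes of smallest p in each window. From ILKAP to THAP4 they include KIF1A, the kinesin of synaptic vesicle precursors (111, 109 and 123 in clone c6, 46.6, 27.3 and 25.5 in clone c8, -1.43 ± 0.16), the RNA-binding protein HDLBP (-1.09 ± 0.12), COPS9 of the COP9 signalosome (-0.96 ± 0.09) and the septin SEPTIN2 (1665, 1592 and 1634 against 1044, 978 and 991, -0.69 ± 0.07). From NBEAL1 to RPE they include the microtubule protein MAP2, the semaphorin receptor NRP2 and isocitrate dehydrogenase IDH1 (-0.62 ± 0.08). The window from ITM2C to AGAP1 holds the nucleolar protein NCL, PTMA and the proteasome subunit PSMD1 (-0.58 ± 0.08).

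The 3 highest windows were on chromosomes 13, 8 and 15. That of chromosome 13 ran from N4BP2L1 to MRPS31 (median 0.40, 10 higher and 0 lower) and included RFXAP, a regulator of MHC class II genes (107, 66.6 and 80.1 against 186, 183 and 155, 0.94 ± 0.13), and SMAD9 of the BMP pathway (0.56 ± 0.09). The window of chromosome 8 ran from RAB2A to SDCBPP2 (0.39, 10 higher and 1 lower), with COPS5 of the COP9 signalosome at 0.62 ± 0.09 and the phosphodiesterase PDE7A at 0.60 ± 0.09. The window of chromosome 15 ran from VPS33B to CHSY1 (0.30, 8 higher and 0 lower) and held the receptor IGF1R (381, 394 and 272 against 535, 503 and 499, 0.55 ± 0.11). Groups of clone c6 and clone c8 did not overlap for any of these genes. The choice by small p in the same arrays favours this, as 1513 of the 1853 called genes were without overlap. Of all genes tested, 24.0% were. The arrays read RNA, and the DNA of the clones was not analysed here.

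**Figure D3:**
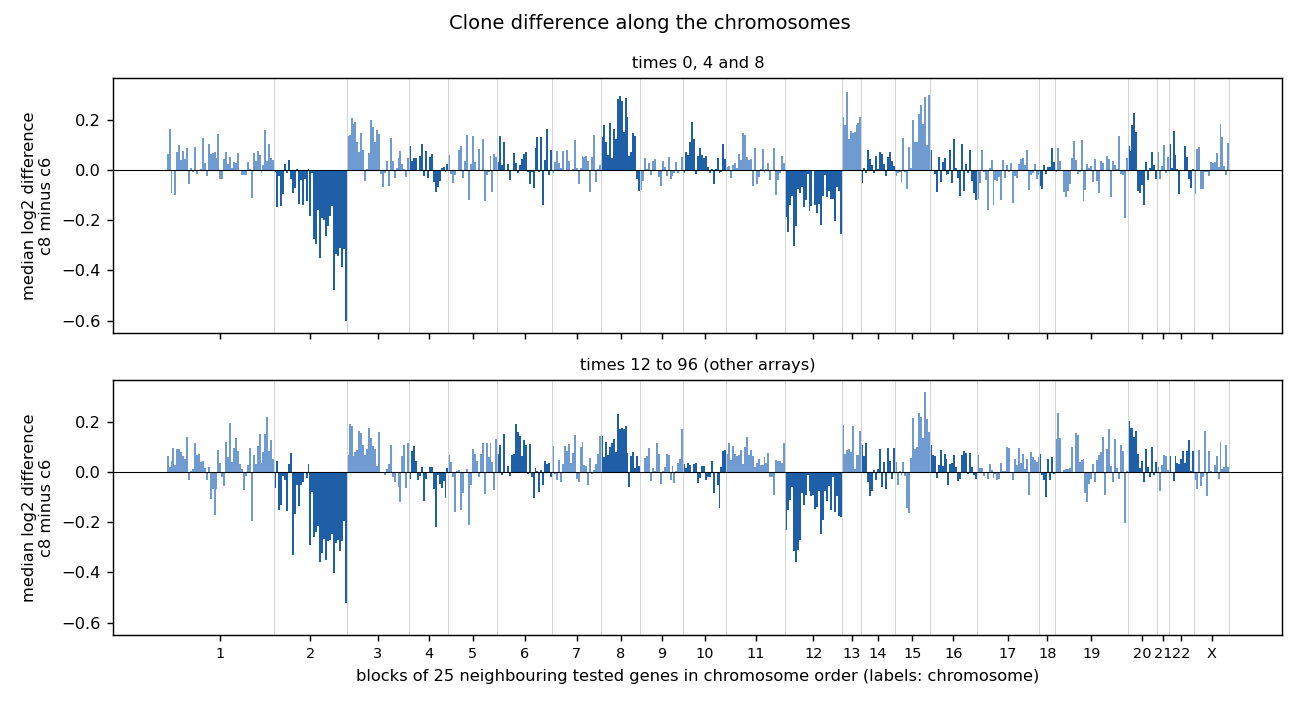
Bars are medians of the log2 difference over consecutive blocks of 25 tested genes in chromosome order, at times 0, 4 and 8 above and at times 12 to 96 below. The stretch of chromosome 2 from SLC67A2 on reaches -0.60 above and -0.52 below, chromosome 12 lies mostly below 0, and chromosomes 8, 13 and 15 lie mostly above 0 in both panels.

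On the same 5 chromosomes the clones differed in the same direction in the 10 arrays of times 12 to 96, which the comparison had not used. The median later difference was -0.18 on chromosome 2 and -0.14 on chromosome 12. It was 0.10, 0.09 and 0.07 on chromosomes 8, 13 and 15, beside 0.09 on chromosome 20 and 0.07 on chromosome 3. Chromosomes other than the 5 were not read array by array. The median of each array's deviations over the genes of chromosome 2 was 0.10 ± 0.02 (SD, n = 5) in clone c6 and -0.09 ± 0.02 (SD, n = 5) in clone c8. On chromosome 12 it was 0.08 ± 0.03 and -0.07 ± 0.01 (SD, n = 5 each), on chromosome 13 -0.06 ± 0.03 and 0.06 ± 0.05 (SD, n = 5 each), on chromosome 8 -0.05 ± 0.01 and 0.05 ± 0.03 (SD, n = 5 each), and on chromosome 15 -0.04 ± 0.02 and 0.05 ± 0.01 (SD, n = 5 each). The clones did not overlap on any of the 5 chromosomes. Clone c8 was lower at 5 of 5 times on chromosomes 2 and 12 and higher at 5 of 5 on chromosomes 8, 13 and 15. With clone labels exchanged within times, the two-sided exact permutation p was 0.0625 for each chromosome and after adjustment over the 5. That is the smallest value 5 pairs allow, so this design cannot reach 0.05. Over 543 blocks, the medians of the first and later times correlated with r = 0.70, a description of blocks that share clones and probe sets.

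NOTCH3, the receptor whose intracellular domain is induced, was higher in clone c8 from the start. Its signal was 94.6, 75.2 and 161 in clone c6 at times 0, 4 and 8 against 218, 275 and 440.0 in clone c8, without overlap (1.37 ± 0.13, adjusted p = 1.7e-05). The lowest array of clone c8 was its time 0. The sources used here do not tell whether this probe set also reads the construct, and a second, dim one gave 0.21. HEY1, a repressor gene switched on by Notch, read 30.0, 553 and 1821 in clone c6 against 71.4, 2259 and 3174 in clone c8 (1.24 ± 0.17, adjusted p = 0.00029). CXCR4, the receptor of the chemokine CXCL12, read 91.0, 864 and 1898 against 223, 2421 and 2718 (1.05 ± 0.13, adjusted p = 0.00018). Both genes climbed steeply in each clone, so the clones overlap across times, while clone c8 exceeded clone c6 at times 0, 4 and 8 alike.

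Among the other HES and HEY genes fixed by name, none passed the test. HES1 read 3.9, 308 and 479 in clone c6 against 14.3, 356 and 326 in clone c8 (0.09 ± 0.17, adjusted p = 0.80). The clone order turned between times 4 and 8. HEYL (0.42 ± 0.15, adjusted p = 0.091), HEY2 (0.34), HES5 (0.24), HES4 (0.20) and NRARP (0.19) did not pass, nor did the ligand JAG1 (17.4, 123 and 254 against 17.9, 222 and 309, 0.36 ± 0.15, adjusted p = 0.14). HEYL was still higher in clone c8 at each time (29.5, 32.8 and 45.0 against 48.5, 46.7 and 64.3). The clones did not overlap in it, as in 24% of all genes. HEY2 was also higher at each time (16.9, 44.1 and 36.8 against 17.1, 52.3 and 78.3), with overlap. The sign of HES1, HES5 and NRARP turned when time 0 was left out.

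Of 18 Notch targets tested, 22.2% were called beside 13.6% of all genes. The 2 higher were HEY1 and the cell cycle inhibitor CDKN1A (0.62 ± 0.11). The 2 lower were HES6 (-0.63 ± 0.11) and TXNIP (-0.65 ± 0.13). The median was 0.16 beside 0.01 over all genes. Of 12 receptors and ligands, NOTCH3 and the ligand JAG2 (0.57 ± 0.17) were higher and the contactin CNTN1 was lower (-0.58 ± 0.13), with a median of 0.25. Of 24 modulators and coactivators 2 were higher and 1 was lower, or 12.5% called beside 13.6% of all genes. MFNG, a glycosyltransferase that modifies the receptor, read 89.0, 66.3 and 77.4 in clone c6 against 203, 126 and 129 in clone c8 (0.83 ± 0.13). Subunits of gamma-secretase went both ways: NCSTN was higher (0.44 ± 0.10) and APH1A lower (-0.38 ± 0.08).

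**Figure D4:**
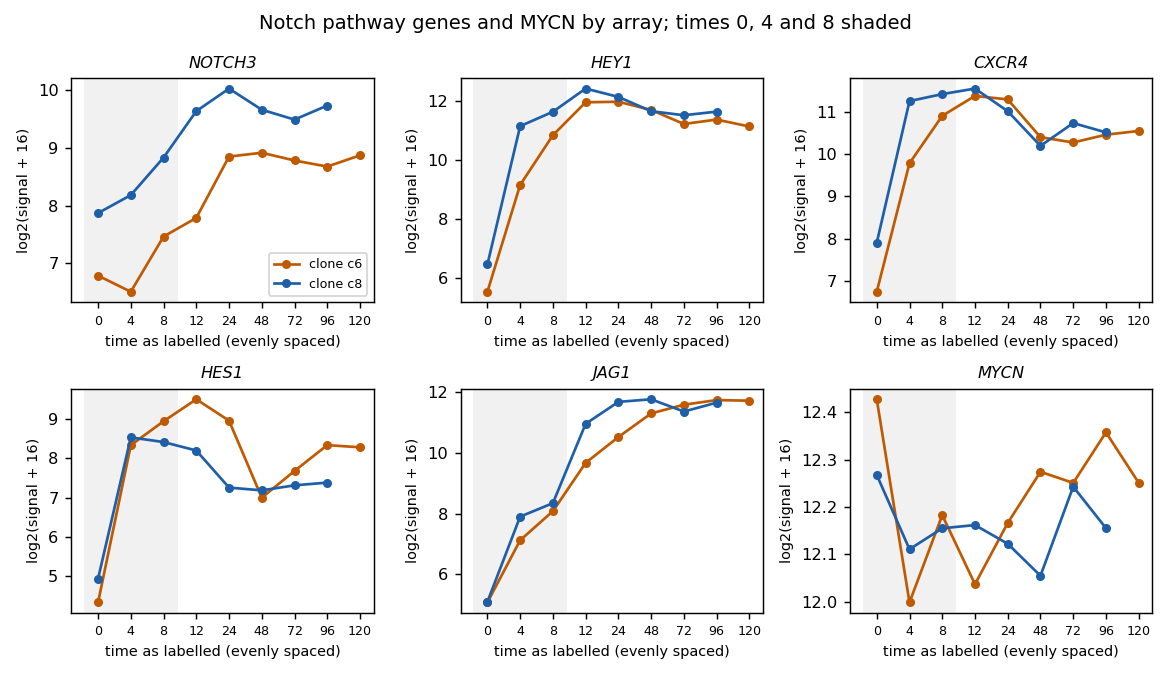
Lines join the arrays of clone c6 (orange) and clone c8 (blue) over all times, with log2(signal + 16) on the y axis, times evenly spaced on the x axis and times 0, 4 and 8 shaded. NOTCH3 of clone c8 lies above clone c6 at every shared time, HEY1 and CXCR4 lie closer together after time 8, and MYCN shows no stable order on an axis that spans little more than 0.4.

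The neuroblast regulators were close in level. MYCN read 5493, 4075 and 4633 in clone c6 against 4915, 4406 and 4544 in clone c8 (-0.03 ± 0.06, adjusted p = 0.86). GATA3 (-0.04 ± 0.06), PHOX2A (0.14 ± 0.08), HAND2 (-0.25 ± 0.14) and the noradrenaline enzyme DBH (-0.37 ± 0.17) did not pass. Of 19 adrenergic transcription factors, 21.1% were called beside 13.6% of all genes. KLF13 (-0.57 ± 0.10) and INSM1 (-0.44 ± 0.09) were lower, and TBX2 (0.45 ± 0.10) and DACH1 (0.43 ± 0.11) higher. The 2 dimmer probe sets of DACH1 gave -0.26 and -0.21. Of 14 genes that neighbour MYCN or are known to be amplified with it, 5 were lower and 0 higher (35.7% called, median -0.11). Among the lower were TRIB2 (-0.49 ± 0.11) and the helicase gene DDX1 (-0.22 ± 0.05). DDX1 was at 0.074 with quantile normalization, where 3 of the 14 were lower and 1 higher.

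Secretory granule and neuronal genes differed gene by gene. CHGA, the granule protein chromogranin A, read 1315, 1021 and 927 in clone c6 against 1988, 2013 and 2082 in clone c8 (0.90 ± 0.10). SCG2, secretogranin II, went the other way, from 123, 101 and 112 to 21.5, 29.6 and 44.0 (-1.45 ± 0.17). In this list of 16 genes, 3 were higher and 2 lower (31.25% called beside 13.6% of all genes). MAP2, which binds microtubules in dendrites, read 499.7, 429 and 430.0 against 186, 167 and 132 (-1.41 ± 0.11). It belongs to the cytoskeleton list, where 8 of 28 were lower and 5 higher (46.4% called), and lies in the chromosome 2 stretch. Also lower there were the microtubule protein MAP1B (-0.52 ± 0.07) and neurofilament NEFM (-0.63 ± 0.10).

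Of 26 synapse genes (19.2% called) 4 were lower and 1 was higher, led by the vesicle protein SYT4 (134, 158.5 and 158 against 46.2, 55.0 and 51.7, -1.31 ± 0.13). Of 33 ion channels and transmitter receptors 9.09% passed, fewer than the 13.6% of all genes, with 3 lower and 0 higher. The lower ones were the calcium channel subunit CACNA2D1 (-0.95 ± 0.11), the serotonin receptor HTR3A (-0.94 ± 0.13) and the potassium channel KCNK3 (-0.81 ± 0.19). Other probe sets of KCNK3 gave only -0.19 and -0.05. Of 29 growth factor receptors (24.1% called) 4 were lower and 3 higher, with the GDNF co-receptor GFRA1 at -0.99 ± 0.14, KIT at -0.68 ± 0.13 and EGFR at 0.79 ± 0.19. The medians of these lists, -0.11, -0.01 and -0.01, were near that of all genes or slightly below it.

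Guidance and adhesion genes held large differences in both directions. Of 30 guidance and migration genes 9 were higher and 3 lower. The netrin receptor UNC5C read 11.6, 23.6 and 25.8 in clone c6 against 57.1, 71.5 and 90.9 in clone c8 (1.30 ± 0.16), while NRP2 read 108, 115 and 137 against 46.2, 32.5 and 52.5 (-1.20 ± 0.14). The list's median of 0.05 became -0.02 without chromosomes 2, 8, 12, 13 and 15, a setting chosen after the data were seen. Of 21 cadherins (28.6% called) 5 were lower, among them CDH7 (-1.27 ± 0.17) and PCDH19 (-1.09 ± 0.18), and 1, CDH10, was higher (73.1, 65.3 and 98.6 against 244, 224 and 239.8, 1.42 ± 0.13).

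In the matrix, 4 of 39 genes were higher and 5 lower (23.1% called). COL11A1, a minor fibrillar collagen, read 35.4, 48.7 and 69.8 in clone c6 against 89.6, 209 and 225 in clone c8 (1.44 ± 0.15). COL1A1, the main chain of type I collagen, read 391, 311.5 and 449 against 181, 158 and 183 (-1.06 ± 0.11). FN1, fibronectin, was lower (-0.40 ± 0.11, adjusted p = 0.028, but 0.087 with median centring), and so was the intermediate filament gene VIM (4820, 5467 and 5799 against 3426, 3580 and 3897, -0.56 ± 0.06). SNAI2 (-0.16) and PRRX1 (0.18), regulators of the mesenchymal state, did not pass, and of 16 mesenchymal transcription factors 2 were higher and 2 lower. Of 26 integrin and adhesion genes 15.4% passed, near the 13.6% of all genes, with 3 higher and 1 lower, the integrin ITGA4 (276, 200.4 and 174 against 117, 88.5 and 91.4), another gene of the chromosome 2 stretch. COL1A1 is itself a fibroblast marker and carries much of the marker sum given above. The other 4 fibroblast markers beside PDGFRA differed by -0.26 to 0.25 and did not pass.

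Cholesterol and lipid synthesis genes that passed were all lower in clone c8. Of 25 tested, 11 were lower in clone c8 and 0 higher (44.0% called beside 13.6% of all genes). The median of -0.25 lay between -0.32 and -0.22 under the alternatives. SQLE, squalene epoxidase, read 1651, 2146 and 2357 in clone c6 against 1237, 1131 and 1194 in clone c8 (-0.77 ± 0.10). HMGCS1, the HMG-CoA synthase, read 347, 452.5 and 483 against 241, 248.6 and 250.5 (-0.74 ± 0.11), although its dimmer probe set gave 0.36. DHCR7 (-0.68 ± 0.11) and the desaturase SCD (-0.42 ± 0.07) were lower as well. In the later arrays 1 of the 25 was lower, 0 were higher and the median was -0.01.

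Glucose use and stress lists also held mostly lower genes among those that passed. Of 34 in the glycolysis and hypoxia list 10 were lower and 1 higher (32.4% called beside 13.6% of all genes, median -0.15). GPI, glucose phosphate isomerase, read 1208, 1374 and 1628 in clone c6 against 722, 820 and 869.9 in clone c8 (-0.78 ± 0.08). ALDOA and TPI1 were each lower by -0.62 ± 0.07, and GAPDH by -0.35 ± 0.06, although GAPDH was at -0.13 and did not pass with quantile normalization. Of 35 stress and amino acid genes 7 were lower and 0 higher (20.0% called, median -0.16). The serine synthesis enzyme PHGDH was at -0.73 ± 0.09. Of 13 heat shock genes 5 were lower and 0 higher (38.5% called, median -0.22), among them HSPB1 (-0.47 ± 0.08). With quantile normalization only 1 was lower.

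Growth and division genes gave smaller differences. Of 37 replication and S phase genes 10 were lower and 1 higher (29.7% called beside 13.6% of all genes, median -0.10). UHRF1, which recruits DNA methylation to new strands, was at -0.63 ± 0.08 and the helicase subunit MCM4 at -0.54 ± 0.10. In the later arrays 4 of the 37 were higher and 0 lower (median 0.22). Of 36 mitosis genes 3 were higher and 3 lower (16.7%, near the 13.6% of all genes). The kinase PLK1 read 135, 198 and 294 against 337, 416 and 567 (1.05 ± 0.11), while the proliferation marker MKI67 differed by -0.09 ± 0.09. Of 14 p53 targets (42.9% called) 4 were higher and 2 lower. Among the higher were CDKN1A and BAX (139, 159.6 and 130.5 against 278, 266 and 341.5, 0.96 ± 0.13).

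MYC and MYCN targets were lower in 10 of 23 cases and higher in 0 (43.5% called beside 13.6% of all genes, median -0.18). Among the lower were EIF5A (-0.65 ± 0.08), NCL (-0.46 ± 0.07) and PTMA (-0.34 ± 0.06). The count was 8 with quantile normalization and 5 with median centring, and 3 of 13 without the 5 chromosomes named above. Of 25 ribosomal protein genes (56.0% called) 13 were lower and 1, RPS27L, was higher (0.58 ± 0.07), with a median of -0.18. With quantile normalization 2 were higher and 0 lower, and the median was 0.02. The brightest genes moved with the scaling in the same way: of 150 genes with a mean of 12 or more on the log2 scale, 80 were lower and 0 higher (median -0.19), and with quantile normalization 9 were lower and 14 higher (median 0.02). On the later arrays the median of these 150 was -0.13 as deposited and 0.00 after quantile normalization. The part of brightness in the ribosomal protein and heat shock counts was not tested.

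Among the remaining lists, imprinted genes (26.3% called beside 13.6% of all genes) had 4 of 19 lower, led by MEST and PEG10 (508, 365.5 and 363.5 against 249.9, 201.5 and 191, -0.89 ± 0.10), and 1 higher. Of 9 metallothionein genes MT2A and MT1X (-0.83 ± 0.16) were lower and 0 higher (22.2% called, median -0.27). Of 17 WNT feedback genes (35.3% called) 4 were higher, among them WNT5A (0.83 ± 0.14), and 2 were lower, among them WNT5B (-0.85 ± 0.15). Of 22 immediate early genes (22.7% called) 3 were higher and 2 lower, the latter NR4A2 (-0.83 ± 0.17) and KLF6 (-0.47 ± 0.10). DUSP4, a phosphatase of the ERK kinases, was the first of the higher ones, at 127, 151 and 199.6 against 239, 603 and 553 (1.38 ± 0.15). The probe sets of KLF6 disagreed: others gave 0.24, -0.10, -0.08 and -0.54. Of 24 interferon-stimulated genes 16.7% passed, near the share of all genes, with 3 higher and 1, IFI44L, lower (-0.82 ± 0.19), and with median centring 0 were higher and 1 lower.

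Most genes called at times 4 and 8 differed in the same direction at time 0, by a smaller median. A fit to times 4 and 8 alone called 1769 genes (12.9%), 931 higher (6.81%) and 838 lower (6.13%), and 1590 of these (89.9%) had the same sign at time 0, whose arrays that fit does not use. Of the uncalled genes 61.2% did. The called genes differed by a median of 0.56 at times 4 and 8 and by 0.32 in that direction at time 0. They were chosen for their values at times 4 and 8, which alone favours a smaller median at time 0. Genes 2-fold apart numbered 172 at time 0, 304 at time 4 and 219 at time 8. Across all genes the clone differences correlated with r = 0.38 between times 0 and 4 and 0.43 between times 0 and 8. Between times 4 and 8 it was 0.47. No gene passed for a change of the clone difference between time 0 and times 4 and 8 (0 of 13675 in limma, 351 at an unadjusted p under 0.05, smallest adjusted p = 1.0), a test that rests on 1 array per clone at time 0. The smallest p went to HS3ST3B1, a heparan sulfate sulfotransferase (27.1, 18.7 and 36.4 against 20.5, 102 and 120.5), RORB and PIANP, with changes of 1.81 ± 0.35, 1.62 ± 0.32 and 2.81 ± 0.58.

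In the 10 arrays of times 12 to 96, 1194 genes (8.73%) differed between the clones, 599 higher (4.38%) and 595 lower (4.35%). Of the 1853 genes of the first 3 times, 1713 (92.4%) had the same sign later, against 64.3% of 11822 uncalled genes. In all 639 were called in both periods in the same direction, which is 34.5% of the first and 53.5% of the later calls, and 3 were called in opposite directions. Among the 1853, the median difference was 0.49 at the first times and 0.31 in that direction later. These genes were chosen for their values at the first times. Across all 13675 genes the differences of the periods correlated with r = 0.60 (Spearman's rho = 0.53), a description of genes that share clones and probe sets. The later count was 378 without time 72, 421 without time 96 and 792 without time 48.

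All 24 of the largest genes kept their sign in the later arrays, and 20 were called there. PAGE1 read 9.12 ± 6.28 in clone c6 and 165 ± 32.6 in clone c8 (SD, n = 5 each), a difference of 2.87 ± 0.19. RAB31 read 623 ± 103 and 136 ± 35.0 (SD, n = 5 each, -2.09 ± 0.11), and MEST 1244 ± 175 and 380 ± 46.9 (SD, n = 5 each, -1.66 ± 0.09). NOTCH3 stayed higher in clone c8, at 387 ± 105 against 828 ± 121 (SD, n = 5 each, 1.11 ± 0.15, adjusted p = 0.0018). FAM43A (-0.07), CLSTN2 (-0.49), MT2A (-0.33) and LHX9 (-0.47) were the 4 that did not pass later. HEY1 (0.23 ± 0.08, adjusted p = 0.098) and CXCR4 (0.04 ± 0.11) did not pass later either, and HES1 was lower in clone c8 (-0.83 ± 0.22, adjusted p = 0.036).

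The change of the clone difference from times 0 to 8 to times 48 to 96 was tested itself, and 2 of 13675 genes passed (0.0146%), 1 in each direction (0.00731%). UNC5C changed by -1.82 ± 0.23 and FAM43A by 1.54 ± 0.20 (adjusted p = 0.045 each). UNC5C rose in clone c6 to 164, 210 and 368 at times 48, 72 and 96, and read 162, 124.5 and 196 in clone c8. The early gap was gone, and a late difference of the opposite sign was not tested by itself. FAM43A was lower in clone c8 at times 0, 4 and 8 and read 418, 272 and 239.8 in clone c6 against 239, 216 and 200.2 in clone c8 at times 48 to 96. HEY1 changed by -1.07 ± 0.25 (adjusted p = 0.28), CXCR4 by -0.95 ± 0.24 (0.36), SYNPO2 by -1.47 ± 0.25 (0.15) and NOTCH3 by -0.54 ± 0.20 (0.49), none past the threshold. At an unadjusted p under 0.05 there were 1224 genes. Without time 0, 4 or 8 of both clones neither UNC5C nor FAM43A passed.

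**Figure D5:**
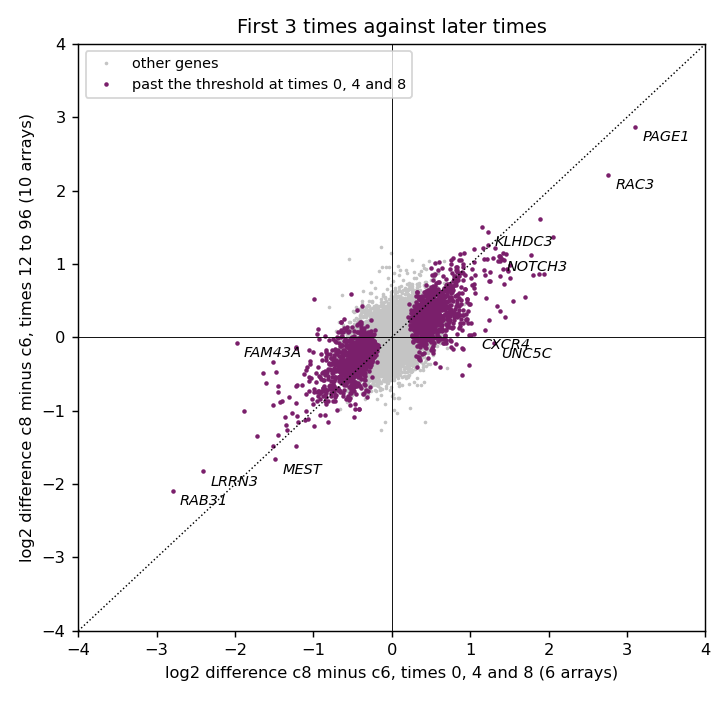
Each point is a gene, with its log2 difference (c8 minus c6) at times 0, 4 and 8 on the x axis and at times 12 to 96 on the y axis, purple where it passed at the first times. PAGE1, RAB31, LRRN3 and MEST lie near the dotted line of equality, while FAM43A (-1.98 first, -0.07 later) and UNC5C (1.30 first, -0.08 later) lie near 0 on the y axis.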

How the data were processed

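RNA of 17 cultures was labelled and hybridised to 1 array each. The authors deposited linear intensities per probe set. MAS5 and GCOS are named, with no version, per the submitters' processing notes, and the trimmed mean of 100.01 on the arrays shows a common scaling. Precision is limited by the number of arrays.

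Intensities were taken as log2(value + 16). The platform annotation gave 1 symbol for 41097 of 54675 probe sets, several for 1801 and none for 11777. RefSeq (GRCh38.p14) held 41043 of them and changed 0. The sources used here do not name the genome build behind the probes, so gene order comes from RefSeq names alone. Each gene was read by its probe set of highest mean, and 13675 of 19775 genes reached the 40th percentile (log2 4.68). The test was lmFit and eBayes with a trend on intensity (limma 3.58.1, R 4.3.3), with a Benjamini-Hochberg threshold of 0.05, time as a block and the clone as the tested term, with 2 residual degrees of freedom at times 0, 4 and 8. The later arrays were fitted alike. The change of the clone difference came from 1 fit to the 16 arrays of shared times. The scripts were tested on simulated data.

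The pairing of arrays by time comes from the labels. Deviations of same-time arrays from their clone's mean correlated with r = 0.31 at time 0, 0.04 at time 4 and 0.39 at time 8 across genes, and the block stayed in the model. At most 1.42% of values were equal between any 2 arrays, so all were kept as separate samples.

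The members and gene lists were chosen with earlier results of these data known. Named were the 12 largest differences each way past the threshold without overlap between clones, up to 4 members of smallest p per list, genes fixed by name (of which TH and CD44 were below the filter), genes of the extreme windows, the 5 largest changes of the difference past the threshold or the 3 of smallest p, and cell type markers. Lists are described by counts and medians, with no test. The share called varied with level, so a list of bright genes is not matched by the 13.6% of all genes. Under log2 6, 85 of 4424 genes were higher and 76 lower, and at 10 to 12, 113 of 1015 were higher and 153 lower. Alternatives changed the pseudocount (1 or 64), the scaling (quantile normalization or median centring), the filter (none, the 60th percentile, or from the 6 arrays), the probe set rule (mean, or all tested), the trend, the time block and the arrays (all 16, single times, each time left out). Lists without 5 chromosomes and the fit to times 4 and 8 were added after seeing the data. Promoters are RefSeq's. No coordinates other than theirs are printed. 1 of the 24 largest genes is not reported here in the text.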

Additional observations from a re-analysis of the deposited data

Results flagged for a closer look

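The clone difference of UNC5C was not the same at the start and late in the course. It changed by -1.82 on the log2 scale between times 0 to 8 and times 48 to 96, and the late difference was not tested by itself. Its 4 other probe sets were dim and differed by 0.06 to 0.49 at the first times.

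The clone difference of FAM43A changed the other way, by 1.54, from clearly lower in clone c8 to a small difference. A second, dim probe set gave -0.48 at the first times. Both genes passed the test of the change itself at an adjusted p of 0.045, as the 2 of 13675 genes that did, and neither passed in every alternative.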

How the results depend on the processing

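The 1853 genes of times 0, 4 and 8 became 1173 with median centring, 861 without a filter, 1017 with the mean of the probe sets, 240 without the intensity trend and 741 with the spread of all 16 arrays, and 2865 probe sets passed when all were tested. With time left out of the model (no replicate block) 524 passed, all of them among the 1853. Leaving out each time gave 1769 (time 0), 1205 (time 4) and 1069 (time 8), and 708 of the 1853 passed in each of these fits. The 1194 later genes became 665 without a filter, 2414 with all probe sets, 665 without the trend and 1213 with no block, and 378 to 1165 without each time (378 without 72, 421 without 96, 792 without 48). The 2 changes of the clone difference became 0 with a pseudocount of 64, without a filter, at the 60th percentile, with the mean of the probe sets and without the trend, 1 with median centring, 4 with quantile normalization or all probe sets, and 0 to 2 without each time. For times 4 and 8 against 0 the count was 0 in every setting run, with 207 to 692 at an unadjusted p under 0.05. Of the 24 largest differences, 23 kept their call in every setting with a test that held them (FKBP10 was not in that of the 60th percentile), and TAF15 lost it with a pseudocount of 1. At single times, turns were counted only for genes past the threshold, so that of HES1 at time 8, for example, is left out. By this count signs turned in 17 of 3190 values for single genes. These were HES1 at -0.032 with a pseudocount of 64, MYCN at 0.055, GATA3 at 0.067 and DDX1 at 0.074 with quantile normalization, and MYCN at 0.049, GATA3 at 0.076, CCND1 at -0.12, DACH1 at -0.0091 and GNAS at 0.0049 with the mean of the probe sets. Without time 0 they were HES1 at -0.17, HES5 at -0.039, NRARP at -0.028, MYCN at 0.042 and PRRX1 at -0.17, without time 8 CCND1 at -0.030, and in single times HS3ST3B1 at -0.24 (time 0) and TGFBR3 at 0.085 (time 4). The causes were not tested. Each clone is 1 line with 1 array per time, dim genes are set by the pseudocount, and genes below the filter were not tested.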
